A study of Mus musculus with 4 samples.

Results

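Neurotensin is a neuropeptide that acts on 2 dedicated G protein-coupled receptors, and the 3 genes described here are Nts, which encodes its precursor, and Ntsr1 and Ntsr2, which encode those receptors. They were taken by name from the deposited count tables, where all 3 were present among 20136 listed genes. The tables came from 4 Drop-seq libraries of mouse BNST, the bed nucleus of stria terminalis, which belongs to the extended amygdala. Each library was made from tissue punches of 6 pooled mice, 24 in all, and every mouse was a male wildtype C57BL/6J animal; the age was not given in the sources used here. There was a single group and no treatment, so the comparisons were made between kinds of cells within each library (n = 4 libraries). In Drop-seq each cell's RNA is caught on a barcoded bead, and each caught molecule counts once as a unique molecular identifier (UMI).

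The neurotensin precursor also contains neuromedin N, and prohormone convertases such as those encoded by Pcsk1 and Pcsk2 cut both peptides out in secretory vesicles. Ntsr1 encodes the high-affinity receptor, which couples to Gq proteins and phospholipase C. Ntsr2 encodes a receptor of lower affinity known from astrocytes as well as neurons, and sortilin (Sort1) binds the peptide as a sorting receptor. Released neurotensin is broken down by metallopeptidases, among them neurolysin (Nln), thimet oligopeptidase (Thop1) and endothelin-converting enzyme (Ece1). In the extended amygdala, neurotensin is known as a peptide of GABAergic projection neurons.

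In the GRCm38 annotation, Nts lies on chromosome 10, minus strand, from 102481756 to 102490486. Ntsr1 lies on chromosome 2, plus strand, from 180499976 to 180544980, and Ntsr2 on chromosome 12, plus strand, from 16653382 to 16660227. No other annotated gene overlaps any of them, so their UMIs are not shared with a neighbour in that annotation. The 4 libraries held 2640399 to 5652342 UMIs, and 4181 cells were kept, of which 2526 were gated as neurons and 411 as astrocytes by their marker UMIs. Of the neurons, 2175 were GABAergic (366 to 681 per library) and 84 glutamatergic (7 to 48 per library). As a description of the gate, Slc1a3, a glial glutamate transporter on the astrocyte list, had 5903 ± 929 CPM in astrocytes and 5.24 ± 4.01 CPM in neurons (SD, n = 4; CPM, the usual depth-scaled UMI count of a gene within its class). Levels are means over libraries unless another basis is given. Libraries were pools of different mice, and their spread includes any difference between library batches.

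Nts was a neuronal transcript, and nearly all of it was in GABAergic neurons. GABAergic neurons had 373, 400.4, 185 and 414 CPM of Nts in libraries 1 to 4 (343 ± 107; SD, n = 4), from 3185 UMIs. Library 3 was the lowest, and the other 3 lay close together. Non-neuronal cells had 5.31, 4.25, 3.46 and 11.9 CPM, from 13 UMIs in 1566 cells, so the groups did not overlap. All gated neurons had 325 ± 101 CPM. The log2 fold change of neurons over non-neuronal cells was 5.47 (SE 0.21, edgeR quasi-likelihood adjusted p = 1.33e-29), with neurons higher in 4 of 4 libraries. Of the 10232 genes tested there, 71.2% had an adjusted p under 0.05 and so passed (37% up and 34.2% down in neurons), so passing is common in this comparison. Flipping the signs of the 4 within-library differences in every way (exact permutation, two-sided) gave p = 0.125, below which 4 pairs cannot go.

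Glutamatergic neurons, the other transmitter class, held few Nts UMIs. Their level was 71.8, 0, 0 and 45.8 CPM in libraries 1 to 4, from 26 UMIs in 4 cells, 24 of the UMIs being in library 1. GABAergic neurons were higher in 4 of 4 libraries, with a fitted log2 fold change of 2.95. No p is given for this difference, since library 3 held only 7 glutamatergic cells. Neurons without a transmitter call had 201 ± 146 CPM (80 UMIs in 267 cells), a mean whose library range of 96.9 to 408 CPM overlaps that of the GABAergic neurons. Among non-neuronal classes, Nts had 3 UMIs in astrocytes, 7 in 916 oligodendrocytes, 1 in 155 oligodendrocyte precursors and 2 in 67 vascular cells.

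**Figure D1:**
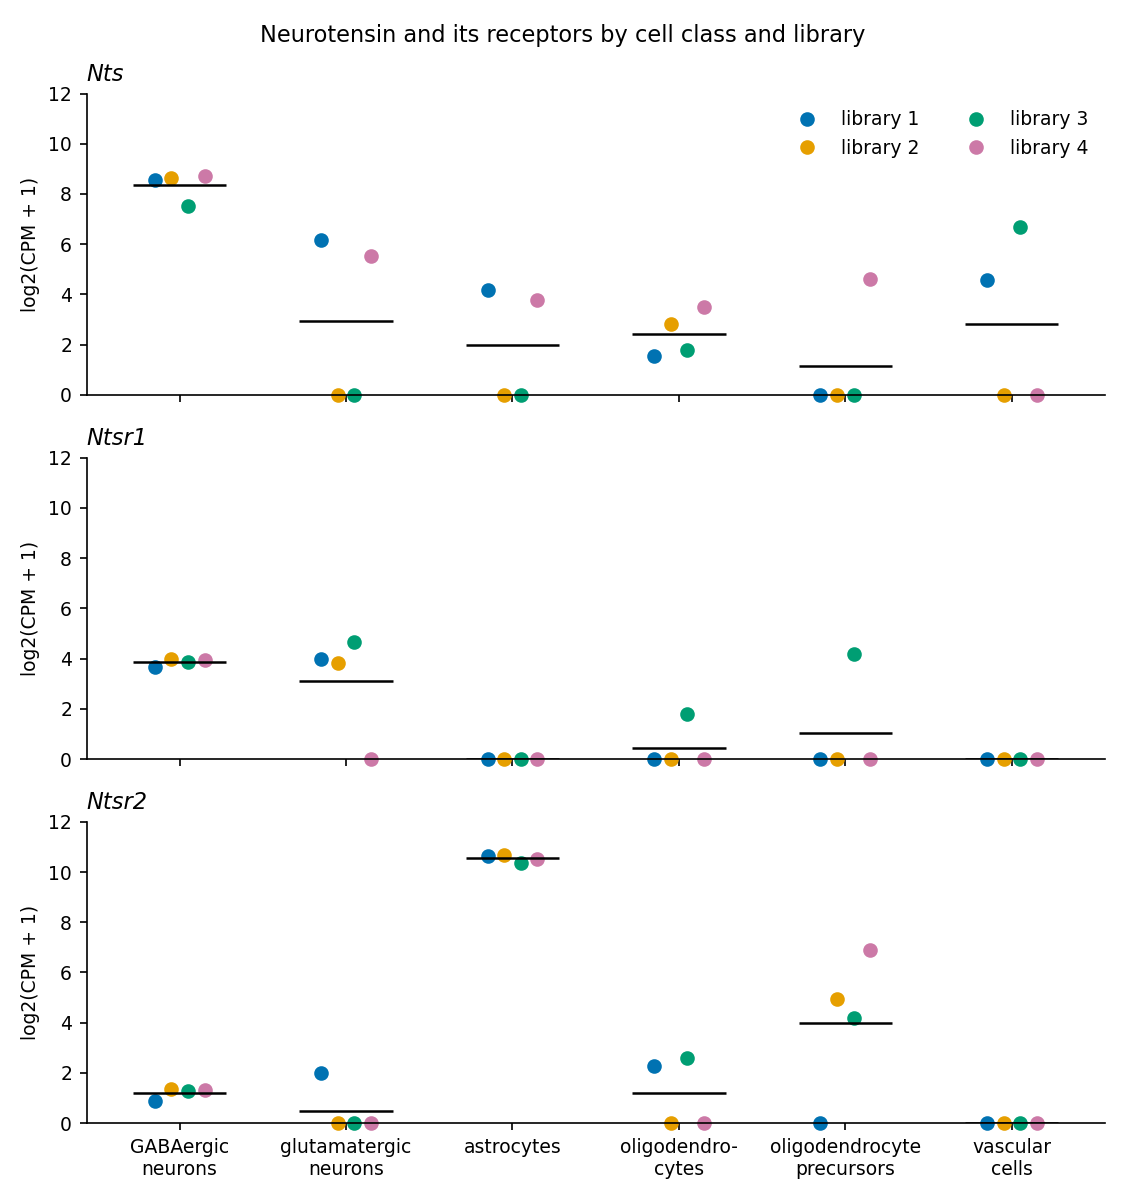
Level of each gene by cell class, as log2(CPM + 1) on the vertical axes. Each point is a library and each black line the mean of 4 libraries. Nts is high in GABAergic neurons (185 to 414 CPM), Ntsr1 is low and neuronal, and Ntsr2 is high in astrocytes (1327 to 1627 CPM) and at most 118.6 CPM in any other class drawn.

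A minority of GABAergic neurons carried the transcript, and a small number of cells carried most of it. At least 1 Nts UMI was found in 370 of 2175 GABAergic neurons (17.0%, exact binomial 95% interval 15.5% to 18.7%, counting error only). The background share, in non-neuronal cells, was 0.830%, but those cells were shallower. When each cell was thinned to 1000 UMIs, leaving out 190 GABAergic and 635 non-neuronal cells below that depth, the share was 11.9%, 13.8%, 7.36% and 13.6% in libraries 1 to 4. The thinned share in non-neuronal cells was 0.651% ± 0.57, lower in 4 of 4 libraries by 11.0 ± 2.67 percentage points (SD, n = 4; exact permutation p = 0.125 by the same sign flips). A cell without a Nts UMI may still express the gene, as a droplet captures only a part of each cell's RNA.

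Among the 370 positive cells, the median was 4 Nts UMIs, and 93 cells had a single one. The 105 cells with 10 or more held 72.8% of all Nts UMIs in GABAergic neurons. The 37 cells with the most held 41.7%. The highest count, 177 UMIs, was in a cell of library 1 with 8790 UMIs in total, and the next highest was 50. This cell alone held 13.2% of the Nts UMIs of the GABAergic neurons of its library. In libraries 2, 3 and 4, which lack it, cells with 10 or more Nts UMIs still held 72.3%, 65.8% and 65.1%.

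**Figure D2:**
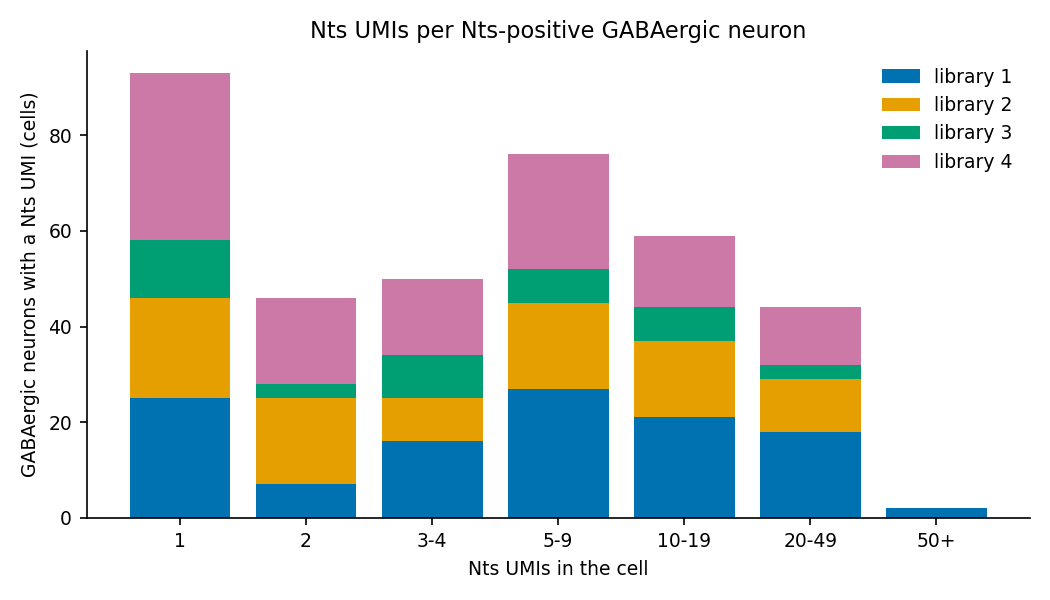
Number of GABAergic neurons (vertical axis) by the number of Nts UMIs they held (horizontal axis, in bins of unequal width), stacked by library, for the 370 cells with at least 1. Single-UMI cells form the tallest bar with 93, and 105 cells hold 10 or more.

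To place Nts among the GABAergic subtypes, cells with at least 2 UMIs of a marker gene were set against cells with none, in each library, for 30 marker genes. There were enough cells in every library to test 20 of these gates, and the gates overlap in cells. Nts passed the test in 12 of 20, 7 higher and 5 lower with the marker (edgeR with library as a block, adjusted over all genes of each fit). Across the 20 fits, the share of all genes that passed ran from 0.771% to 18.9%, with a median of 3.01%. In 8 of the 12 the direction was the same in all 4 libraries, 15 gates had an unadjusted p under 0.05, and DESeq2 called 6. Without the library block 3 gates passed, those of Slc17a8, Penk and Tshz1. In these gates the edgeR SE was smaller than the SE of a mean that the spread between libraries would give. The adjusted p-values come from the same fits. The Crh gate had an SE of 0.11, while its within-library log2 differences were 0.81 ± 0.56 (SD, n = 4). An SD is divided by the root of n to give an SE. The values by library are therefore given first.

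The highest Nts level was in cells with Slc17a8, the gene of the vesicular glutamate transporter VGLUT3, which some GABAergic neurons carry. These 84 cells had 1367, 1185, 742 and 1876 CPM of Nts in libraries 1 to 4, against 335, 353, 147 and 337 CPM in cells with no Slc17a8 UMI. The lowest library with the marker lay above the highest without it. Of the 84 cells, 56 had a Nts UMI. The log2 fold change was 2.11 (SE 0.11, edgeR adjusted p = 4.41e-17; 3.50% of genes passed in this gate), and DESeq2 gave 2.14 (adjusted p = 2.03e-47).

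Cells with Penk, the precursor of the enkephalin opioid peptides, were the largest of the high gates. Their 533 cells had 573, 733, 260 and 728 CPM of Nts, against 256, 288, 172 and 298 CPM without Penk. Each library was higher with the marker, while the low value of library 3 falls among the values without it. The log2 fold change was 1.17 (SE 0.08, edgeR adjusted p = 1.86e-23; 7.02% of genes passed), and they held 1391 of the 3185 Nts UMIs.

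Foxp2, a forkhead transcription factor gene, and Cartpt, which encodes the CART peptide precursor, marked the other gates that were higher in every library. Nts was at 917, 881, 271 and 446 CPM with Foxp2 and at 333, 349, 160.1 and 392 CPM without it. In library 4 the difference was small, and the log2 fold change was 1.02 (SE 0.13, edgeR adjusted p = 7.54e-07; 1.16% of genes passed). With a limit of 5% mitochondrial UMIs it was 0.57 and no longer passed. Nts was at 562, 532, 333 and 746 CPM with Cartpt and at 314, 386.5, 115 and 375 CPM without it. That log2 fold change was 0.91 (SE 0.09, edgeR adjusted p = 7.19e-09; 4.00% of genes passed), and without the cell of 177 Nts UMIs, which had 83 Cartpt UMIs, it was 0.71 and still passed. Without that cell the Cartpt value of library 1 was 366 CPM, against 314 CPM in cells without the marker, and the Penk value of library 1 was 408 CPM. DESeq2 called the Penk, Foxp2 and Cartpt gates as well.

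Crh, Pdyn and Six3 also passed as higher, but not in every library. Cells with Crh, the gene of corticotropin-releasing hormone, had 372, 765, 326 and 755 CPM of Nts against 382, 344, 158 and 359 CPM, so library 1 showed no difference. Its log2 fold change was 0.79 (SE 0.11, edgeR adjusted p = 3.60e-07; 6.41% of genes passed; DESeq2 adjusted p = 0.105). Cells with Pdyn, the dynorphin precursor gene, had 158 CPM in library 1 and 1254 CPM in library 2, and the log2 fold change of 0.77 (3.31% of genes passed) no longer passed without library 2, 3 or 4 (0.24, 0.53 and 0.78). The Six3 gate, a homeobox gene of striatal lineages, had a log2 fold change of 0.61 (1.72% of genes passed), which was 0.074 and did not pass without library 1. Against depth-matched negative cells, neither Six3 (0.48) nor Pdyn (0.83) passed. The 7 gates in which Nts passed as higher covered 55.3% of GABAergic neurons and 88.7% of their Nts UMIs. They were picked by their Nts level in these cells, so the larger share of UMIs follows from that choice.

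Low Nts went with markers of other GABAergic subtypes. Cells with Calb1, the gene of the calcium-binding protein calbindin, had 189, 282, 59.0 and 84.9 CPM of Nts against 414, 460, 278 and 557 CPM without it. All 4 libraries were lower, with a log2 fold change of -1.42 (SE 0.13, edgeR adjusted p = 1.01e-11; 2.19% of genes passed; DESeq2 adjusted p = 0.0403). Cells with Tshz1, a zinc finger transcription factor gene, had 59.0, 143.7, 0 and 131 CPM against 389, 403, 202 and 414 CPM. The groups did not overlap, and the log2 fold change was -2.32 (SE 0.28, edgeR adjusted p = 6.07e-13; 0.771% of genes passed; DESeq2 adjusted p = 2.05e-05), from 20 Nts UMIs in 5 of 65 cells. With a gate of at least 1 Tshz1 UMI in place of 2, the value was -0.43 and did not pass.

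Cells with Cck, the cholecystokinin gene, and Tac1, the substance P precursor gene, were also lower in 4 of 4 libraries, by log2 fold changes of -1.16 (4.28% of genes passed) and -0.70 (2.05%). DESeq2 called neither, Cck no longer passed at 5% mitochondrial UMIs (-0.74), and Tac1 no longer passed without library 1 (-0.57) or 4 (-0.46). The Cck gate ran from 20.4 to 349 CPM of Nts between libraries. The Zic1 gate passed at -0.64 (3.28% of genes passed), but library 2 was higher with the marker (519 against 399 CPM), and the call was lost without library 1, 3 or 4 and with depth matching (-0.58). The 5 gates in which Nts passed as lower covered 42.3% of GABAergic neurons and 31.9% of the Nts UMIs. Here too the gates were picked by their Nts level, so the smaller share of UMIs follows from that choice.

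**Figure D3:**
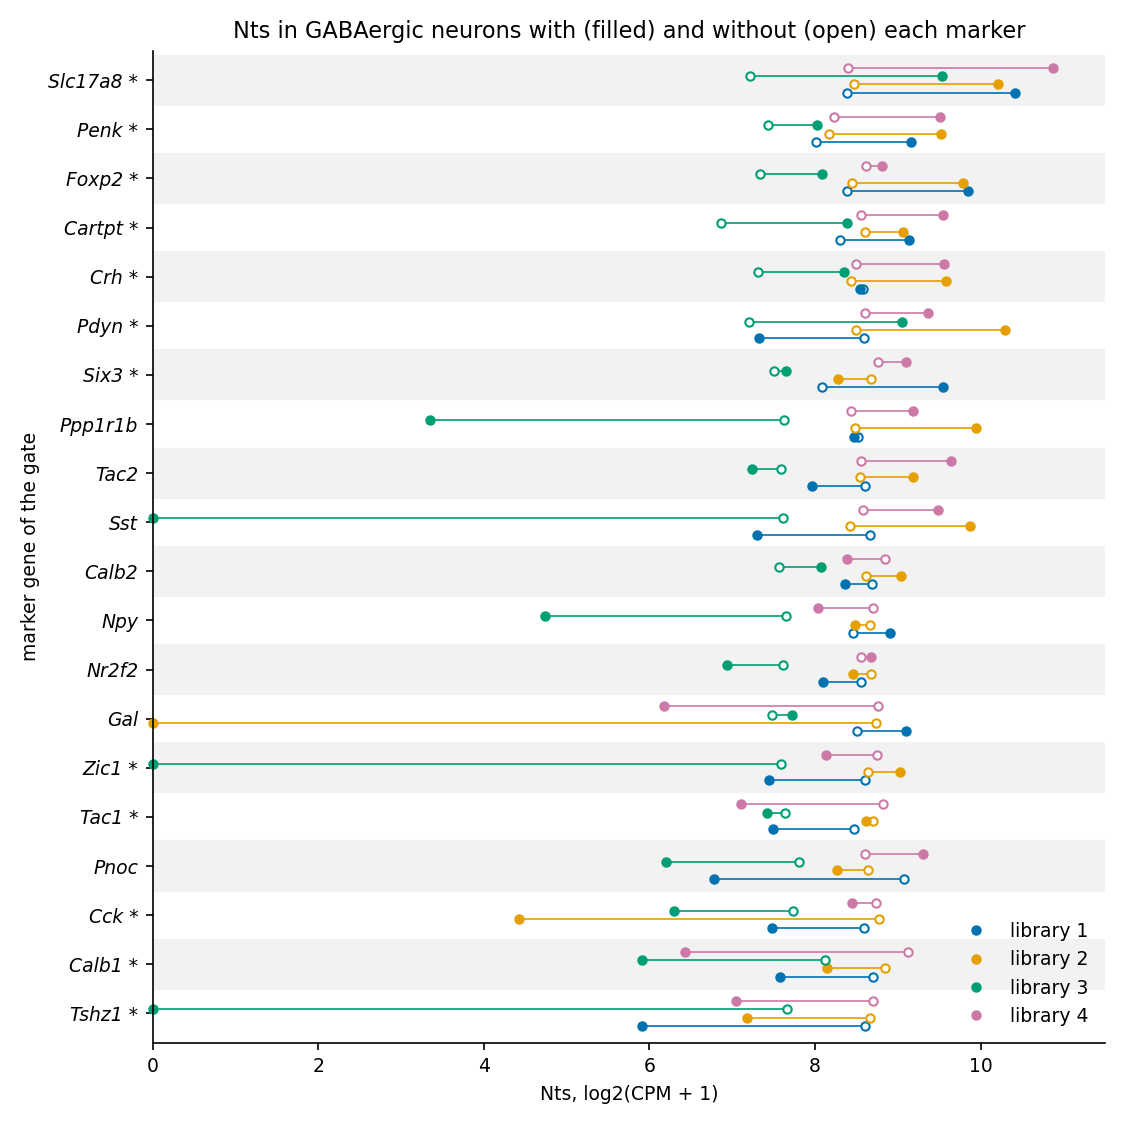
Nts level as log2(CPM + 1) (horizontal axis) in GABAergic neurons with at least 2 UMIs of a marker (filled) and with none (open), for the 20 tested markers, ordered by the fitted fold change. Lines join the values of a library and an asterisk marks an adjusted p under 0.05 in edgeR. Slc17a8 at the top has every filled point above every open one, and Tshz1 at the bottom the reverse.

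Other gates did not pass, and several moved between libraries. Cells with Sst, the somatostatin gene, had 156, 934, 0 and 718 CPM of Nts, and the log2 fold change of 0.27 (1.28% of genes passed) turned negative without library 2 (-0.30) or 4 (-0.11), while it passed without library 1 (0.93) or 3 (0.37). Cells with Pnoc, the prepronociceptin gene on which the series centred, had 109, 306, 72.6 and 634 CPM against 538, 399.5, 223 and 388 CPM, so 3 libraries were lower and library 4 was higher. The log2 fold change was -0.73 (SE 0.25, edgeR adjusted p = 0.157, with 2.35% of genes passing). It passed without library 4 (-1.41) and against depth-matched negative cells (-0.74). The Gal gate, for galanin, had -0.60 (2.08% of genes passed) and itself passed without library 1 (-1.92). Tac2, for neurokinin B, had 0.30 (2.29%) and passed without library 1 (0.76) and against depth-matched negative cells (0.95). Ppp1r1b, for the phosphatase inhibitor DARPP-32, had 0.47 (18.9%) and passed without library 3 (0.69), with depth matching (0.91) and at 1 marker UMI (0.71). Nr2f2, a nuclear receptor gene, had -0.28 (6.09%) and passed without library 4 (-0.41) and with depth matching (-0.47). With no filter on low counts, the gates of Pnoc (-0.76), Ppp1r1b (0.35) and Nr2f2 (-0.30) passed too. The Calb2 gate was at 0.01 (5.47%), but it passed in opposite directions under other settings, at 0.96 against depth-matched negative cells, -0.58 at 5% mitochondrial UMIs and -0.32 at 1 marker UMI. The Npy gate was at -0.15 (2.74%).

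Of the 30 markers, 10 had too few cells in a library for a test. Prkcd, the gene of protein kinase C delta, had an uneven level, with 3062, 242, 580 and 31.3 CPM of Nts in its 51 cells. The cell of 177 Nts UMIs was among them, and without it the value of library 1 was 955 CPM and the mean fell from 979 ± 1407 to 452 ± 404 CPM (SD, n = 4). Among cells with Lhx8, Esr1 or Satb1 the mean was 54.7, 78.6 and 23.0 CPM, lower in 4 of 4 libraries for each. These means rest on 26, 34 and 9 Nts UMIs, found in 7 of 68, 5 of 46 and 3 of 42 cells. The 16 cells with Avp, the vasopressin gene, held 0 Nts UMIs, and with so few cells this is a loose limit.

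The next comparison asked which genes accompany Nts. GABAergic neurons with a Nts UMI were set against those with none, with 116, 93, 41 and 120 positive cells in libraries 1 to 4. Median depth was 3968 UMIs in the positive cells and 3398 in the negative ones. Of 9174 genes tested without Nts itself, 198 passed (2.16%), 83 higher (0.905%) and 115 lower (1.25%), 181 of them in the same direction in all 4 libraries. DESeq2 called 46, and 60 passed when negative cells were matched to positive ones on depth; without library 1, 113 passed. The largest rise again was Slc17a8, with 118, 143, 428 and 275 CPM in positive and 4.75, 35.1, 33.9 and 24.1 CPM in negative cells, a log2 fold change of 3.35 (SE 0.17, edgeR adjusted p = 7.47e-31). This is the same association as in the Slc17a8 gate and not a second measurement of it.

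Other peptide genes fell into a group that accompanied Nts and a group that did not. Of 22 peptide and granin genes, 16 were tested and 13 passed, 6 higher and 7 lower, where 0.905% of all genes were higher and 1.25% lower. The median log2 fold change of the 16 was 0.28, against 0.00 over all genes. Penk was at 914, 1109, 1195 and 1468 CPM in Nts-positive and 489, 660, 492 and 879 CPM in Nts-negative cells, a log2 fold change of 0.89 (SE 0.06, edgeR adjusted p = 3.72e-22). All 4 positive values lay above all 4 negative ones. Cartpt rose by 0.73 on the log2 scale and Vgf, the gene of a secreted granin-family protein, by 1.03, each in 4 of 4 libraries. DESeq2 called Vgf but not Cartpt (adjusted p = 0.126). Scg2, the secretogranin gene, was at 1574 ± 85.6 against 1280 ± 114 CPM and rose by 0.32. Nmb, the neuromedin B gene, had the largest rise among the peptides at 2.27 (SE 0.41), from 33 and 30 UMIs. The annotated gene Sec11a overlaps it, and counts of overlapping genes are uncertain here. Crh had 0.35, passed by edgeR, was higher in 3 of 4 libraries, no longer passed without library 2 or 4 (0.20 and 0.29), and had -0.050 against depth-matched negative cells.

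Tac1 was the most even of the lower peptides, with 145, 170, 159 and 126 CPM in positive and 418, 309, 322 and 251 CPM in negative cells. Its log2 fold change was -1.17 (SE 0.10, edgeR adjusted p = 5.98e-16), and DESeq2 and the depth-matched fit called it too. Npy, the neuropeptide Y gene, had 42.2, 7.17, 16.4 and 406 CPM against 870.4, 410.2, 359 and 1080.4 CPM, a log2 fold change of -2.75 with 4 of 4 libraries lower (edgeR adjusted p = 4.50e-27). Sst fell by 1.62 in 4 of 4 libraries and did not pass in DESeq2 or against depth-matched cells (-0.78). Npy and Sst were thus lower in Nts-positive cells, although Nts did not pass in the gates of either gene. Avp had 2 UMIs in positive and 958 in negative cells, a ratio of 109 whose counting interval runs from 30.2 to 904. Only 16 GABAergic neurons had at least 2 Avp UMIs, 7, 7, 1 and 1 in libraries 1 to 4. The interval treats UMIs as separate draws, so it does not cover the small number of cells. Cck (-1.60), Pnoc (-0.62) and Gal (-0.82) passed as lower by edgeR, each with 1 library the other way, and none of these in DESeq2. Gal was at 0.24 without library 2 and no longer passed without library 3, and Pnoc no longer passed without library 1 (-0.53).

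**Figure D4:**
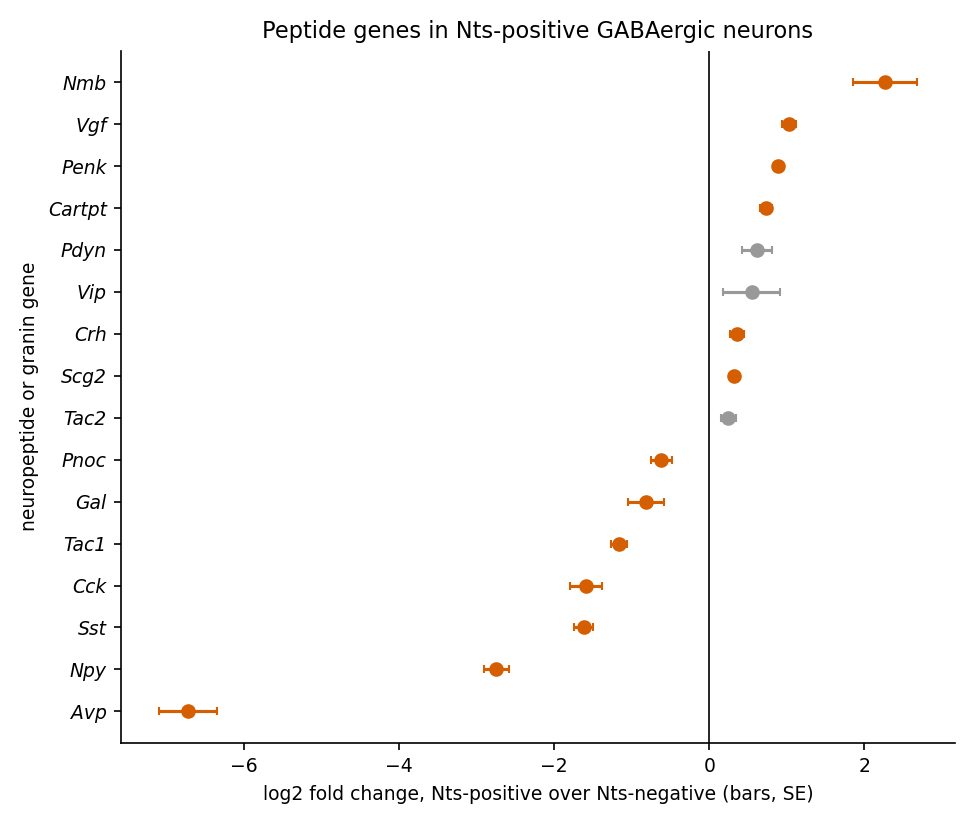
Log2 fold change of 16 peptide and granin genes (horizontal axis) in GABAergic neurons with a Nts UMI over those with none, with the SE as bars. Orange points passed an adjusted p of 0.05 in edgeR and grey points did not. Nmb (2.27) and Vgf (1.03) are at the top, and Npy (-2.75) and Avp (-6.72) at the bottom.

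Among the other genes with the largest rises, Cdc14a, a phosphatase gene, rose by 2.69, Tnfaip8 by 1.89, Spink8 by 1.79, Prok2, which encodes the secreted peptide prokineticin, by 1.79, A730046J19Rik by 1.66 and Dnah5, an axonemal dynein gene, by 1.59. These 6 had 21 to 71 UMIs in the positive cells, and Cdc14a, Tnfaip8 and Prok2 each overlap another annotated gene. Spink8 had 79.7 CPM in library 4 and at most 26.3 CPM in the others, and was at 0.94 and no longer passed without library 4. Dnah5 no longer passed without library 4, Prok2 without library 2 or 4, and Tnfaip8 without library 2 or 3. DESeq2 called Cdc14a and A730046J19Rik but not Tnfaip8, Spink8, Prok2 or Dnah5.

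The largest falls were led by Avp, which few cells carried, and included transcription factor genes. Nfib, a nuclear factor I gene, had 5 UMIs in positive and 460 in negative cells (-4.23, SE 0.38, edgeR adjusted p = 5.98e-16). Maf, another transcription factor gene, had 2 against 104 UMIs, a ratio of 11.9 with a counting interval of 3.20 to 99.2. Igfbp4, an insulin-like growth factor binding protein gene, had a log2 fold change of -3.64, Crabp1, a retinoic acid binding protein gene, -3.40, and Crhbp, which encodes the binding protein of corticotropin-releasing hormone, -3.30. DESeq2 did not call Maf. Other annotated genes overlap Nfib and Maf, so their counts are uncertain too. Crhbp was the most even, with 4.52, 4.78, 5.48 and 2.57 CPM in positive and 45.5, 37.8, 51.6 and 38.6 CPM in negative cells. Each of these genes was lower in 4 of 4 libraries.

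The next list holds genes that make, sort or break down neurotensin or carry its receptor signal. Of 21 such genes, 17 were tested between Nts-positive and Nts-negative cells and 4 passed, where 2.16% of all genes did, with a median log2 fold change of 0.11. Pcsk2, a prohormone convertase gene, was at 60.3, 54.97, 32.9 and 95.1 CPM in positive and 135, 98.5, 103 and 122 CPM in negative cells, a log2 fold change of -0.89 (SE 0.15, edgeR adjusted p = 2.34e-05), lower in 4 of 4 libraries. It no longer passed without library 1 (-0.71). Cpe, for the carboxypeptidase that trims peptide ends, Plcb1, for a phospholipase C, and Sorcs3, a relative of sortilin, passed with 0.24, 0.31 and 0.46. Each was higher in 4 of 4 libraries, but DESeq2 called none of the 3. Cpe no longer passed without library 1, 2 or 4, Plcb1 without library 1 or 2, and Sorcs3 without any 1 of the 4. Pcsk1 was at 0.43 (SE 0.35) and Sort1 at 0.00 (SE 0.20), and neither passed. Of 14 receptor genes of other peptides tested, 3 passed, against 2.16% of all genes. Oprk1, the kappa opioid receptor gene, was higher by 0.91, and Tacr3 and Oxtr, the genes of the neurokinin B and oxytocin receptors, had -2.30 and -2.39. The latter had 5 UMIs each in positive cells. DESeq2 called none of the 3, and Oprk1 no longer passed without library 1, nor Oxtr without library 2.

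Ntsr1, the high-affinity receptor gene, was sparse and neuronal. Neurons had 12.1, 14.4, 13.9 and 13.2 CPM in libraries 1 to 4, an even level of 13.4 ± 1.00 (SD, n = 4), from 127 UMIs in 107 cells. Non-neuronal cells held 2 UMIs, both in library 3, so the size of the difference rests on that library. The pooled ratio was 14.5 with a counting interval of 3.94 to 121, and edgeR gave a log2 fold change of 3.51 (SE 0.70, adjusted p = 1.67e-05), with neurons higher in 4 of 4 libraries. Astrocytes held 0 UMIs in 411 cells, which allows a level of up to 7.92 CPM. This limit is below the neuronal level, and lower levels were not detectable.

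No difference in Ntsr1 between neuronal classes was detectable at this depth. GABAergic neurons had 13.5 ± 1.36 CPM and glutamatergic neurons 13.0 ± 9.91 CPM, the last from 7 UMIs. At 1000 UMIs per cell, 1.17% ± 0.24 of GABAergic neurons had a Ntsr1 UMI, against 0.052% ± 0.10 of non-neuronal cells. Among the subtype gates, 17 could be tested and 0 passed in edgeR or DESeq2, with 2 at an unadjusted p under 0.05, the Sst gate (-1.68) and the Npy gate (-2.11), from 4 and 2 UMIs. The Slc17a8 gate had 25.1 ± 3.53 CPM against 13.0 CPM without the marker, higher in 4 of 4 libraries, with 0.95 (SE 0.59, edgeR adjusted p = 0.566) from 10 UMIs.

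Ligand and receptor transcripts occurred together in some neurons. Of the 99 GABAergic neurons with a Ntsr1 UMI, 25 also had a Nts UMI (25.3%, exact binomial 95% interval 17.1% to 35.0%), against 17.0% of all GABAergic neurons. That interval covers counting error only and pools the cells of 4 libraries. In libraries 1 to 4 the counts were 9 of 36, 5 of 21, 4 of 19 and 7 of 23. Over all GABAergic neurons the shares were 17.0%, 19.5%, 11.2% and 18.4%. Each library's own interval included its share over all, as in library 1 (12.1% to 42.2%). Median depth was 5852 UMIs in the cells with Ntsr1 and 3488 over all, and the part of depth in the share of 25.3% was not tested. Summed over cells, Ntsr1 was at 19.6, 16.7, 21.9 and 20.6 CPM in Nts-positive and 9.84, 14.2, 12.1 and 12.7 CPM in Nts-negative neurons. Positive cells were higher in 4 of 4 libraries, but the log2 fold change of 0.71 (SE 0.34) had an edgeR adjusted p of 0.447.

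Ntsr2, the other receptor gene, was an astrocyte transcript. Astrocytes had 1593, 1627, 1327 and 1455 CPM in libraries 1 to 4 (1501 ± 137; SD, n = 4), from 567 UMIs in 279 of 411 cells. Neurons had 0.98, 1.98, 1.32 and 1.41 CPM, from 13 UMIs in 2526 cells. The log2 fold change was 10.11 (SE 0.23), higher in 4 of 4 libraries, with an adjusted p that edgeR returned as 0; 54.7% of the 9478 genes tested passed in this comparison, 22% higher and 32.8% lower in astrocytes. Within libraries log2(CPM + 1) differed by 9.28 ± 0.25 (exact permutation p = 0.125 by the same sign flips). At an equal 500 UMIs per cell, 53.7%, 52.3%, 46.7% and 47.7% of astrocytes had a Ntsr2 UMI, against 0.141% ± 0.13 of neurons. The share rose to 70.9% at 1000 UMIs, a depth that 292 of the 411 astrocytes did not reach.

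Ntsr2 also set astrocytes apart from the other non-neuronal cells. Those had 3.14, 2.55, 6.33 and 14.6 CPM, and the log2 fold change was 7.83 (SE 0.25, edgeR adjusted p = 1.11e-67; 50.4% of 4421 genes passed, 23.9% higher and 26.5% lower). Oligodendrocytes held 4 UMIs in 916 cells, and vascular cells 0 in 67, which allows up to 34.2 CPM. Oligodendrocyte precursors had 7 UMIs in 7 of 155 cells (0, 29.4, 17.3 and 118.6 CPM). Those 7 cells held 2 to 9 UMIs of astrocyte markers, with a median of 4, against a median of 2 in the other precursors. The part of these markers in the precursor level was not tested.

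**Figure D5:**
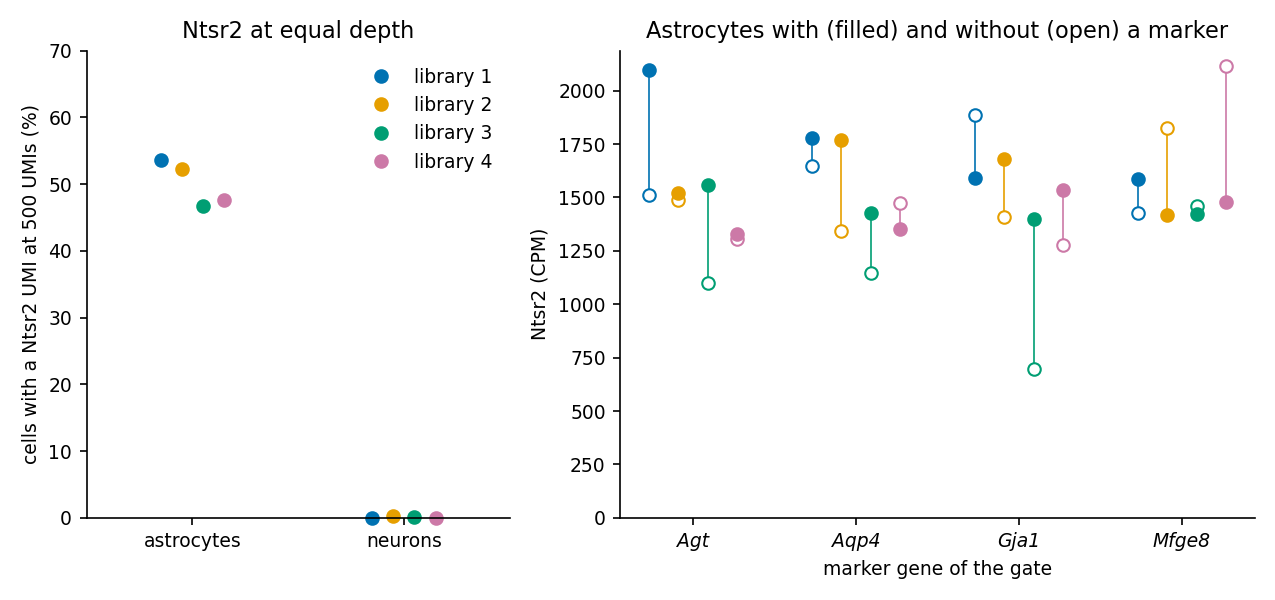
Left, share of cells with a Ntsr2 UMI at 500 UMIs per cell (vertical axis, percent) by library. Right, Ntsr2 level in CPM (vertical axis) in astrocytes with at least 2 UMIs of a marker (filled) and with none (open), by library. Astrocytes lie between 46.7% and 53.7% and neurons near 0, and the marker gates overlap.

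Within astrocytes, no marker gate separated Ntsr2 levels past the threshold. Of 10 marker gates, 4 could be tested, all on genes that are also in the astrocyte list. With Agt, the angiotensinogen gene, Ntsr2 was at 2096, 1519, 1557 and 1329 CPM against 1511, 1488, 1097 and 1307 CPM without it. It was higher in 4 of 4 libraries, with a log2 fold change of 0.30 (SE 0.19, edgeR adjusted p = 0.485; 4.80% of genes passed). The gates of Aqp4, the astrocyte water channel gene, and Gja1, a gap junction gene, were at 0.20 each (SE 0.16 and 0.21), and that of Mfge8 at -0.17 (SE 0.21). In these 3 fits 0% of genes passed. Ntsr2 passed in 0 of 4 by edgeR and 0 by DESeq2, with 0 at an unadjusted p under 0.05. The fits held 367 to 542 genes and the sums were small, so differences of this size were not detectable. Itih3, too thin for a test, was higher in 4 of 4 libraries (1839 ± 291 against 1413 CPM).

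Of 34 listed receptor genes of other peptides, 33 were in the files and 7 were tested between astrocytes and neurons. Ednrb, the endothelin B receptor gene, and Adcyap1r1, the gene of a receptor for the peptide PACAP, were higher in astrocytes, with log2 fold changes of 9.50 (SE 0.21) and 2.27 (SE 0.21), each in 4 of 4 libraries. Ednrb had 2713, 3586, 2855 and 2032 CPM in astrocytes and at most 8.48 CPM in neurons. Oprl1, Oprk1, Sstr1 and Npy2r passed as lower. That made 2 of 7 higher and 4 of 7 lower, where 22% of all genes were higher and 32.8% lower. The nociceptin receptor gene Oprl1 had 1 UMI in astrocytes, and Oprk1, Sstr1 and Npy2r had 0, which puts neurons at least 4.56-fold, 3.39-fold and 10.6-fold higher. The median log2 fold change of the 7 was -4.42, or -1.76 with the genes at 0 set at these bounds, against -0.31 over all genes. The 4 lower genes passed the low-count filter through their neuronal counts. The number of lower genes and this median thus follow in part from the filter.

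Genes of neurotensin handling passed in both directions. Of 17 tested between astrocytes and neurons, 4 passed as higher and 10 as lower in astrocytes, where 22% of all genes were higher and 32.8% lower. The share that passed as higher was thus near that of all genes. The median log2 fold change of the 17 was -0.81, against -0.31 over all genes. Cpe was at 4141 against 630 CPM (2.74, SE 0.14) and Ece1 at 192 against 53.8 CPM (1.91, SE 0.25), and Sorcs2 was higher by 3.04. Sort1 was at 86.1, 64.0, 76.4 and 100.4 CPM against 41.3, 44.1, 61.4 and 48.99 CPM (0.81), and no longer passed without library 1, 2 or 4. Sort1 was higher still in the other non-neuronal cells (224 CPM), from which astrocytes differed by -1.45 (SE 0.27, edgeR). The convertase gene Pcsk1 had 0 UMIs and Pcsk2 had 1 UMI in astrocytes, against 161 and 1148 in neurons. Sorcs3 had 0 against 896, at least 11.6-fold higher in neurons. Pcsk1, Pcsk2 and Sorcs3 passed the low-count filter through their neuronal counts, so the number of lower genes follows in part from the filter. Of the genes of the Gq pathway, Gnaq (-0.79), Plcb1 (-1.21), Plcb4 (-0.81) and Itpr1 (-1.23) were lower in astrocytes than in neurons. Gna11, the other listed gene of that pathway, did not pass (-0.047, SE 0.34). DESeq2 did not call Gnaq, Plcb4 or Itpr1, and Itpr1 no longer passed without library 1, 2 or 3. Plcb1 (1.38) and Plcb4 (1.69) were higher in astrocytes than in the other non-neuronal cells. Nln, the neurolysin gene, did not pass in the comparison with neurons (0.67, SE 0.51).

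Neurons against all non-neuronal cells are given for the same list. Of 17 tested, 12 passed, a share near the 71.2% of all genes. In neurons 9 passed as higher, among them Pcsk2 (2.62), Pam (1.88), an amidating enzyme gene, Plcb1 (2.05) and Itpr1 (1.54). Sort1 (-2.24), Cpe (-0.59) and Ece1 (-0.61) passed as lower, Sort1 in 4 of 4 libraries and Cpe and Ece1 in 3 of 4 each. Neurons had 630 CPM of Cpe and 53.8 CPM of Ece1. Astrocytes had more (4141 and 192 CPM), and the other non-neuronal cells had less (97.1 and 39.5 CPM). The log2 fold changes of Cpe and Ece1 turned positive, at 0.36 and 0.13, when cells needed at least 800 genes, a limit that left 5 to 14 astrocytes per library. Of 22 listed peptide genes 15 were tested, and all 15 passed as higher in neurons, where 37% of all genes did. Their median log2 fold change was 5.74 (5.70 with a gene at 0 set at its bound), against 0.05 over all genes. A sparse peptide gene can pass the low-count filter through its neuronal counts alone, as Pdyn did with 425 UMIs in neurons and 0 in non-neuronal cells. That count and median thus follow in part from the filter.

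As a description, genes were ranked by the Pearson correlation of log2(CPM + 1) with Ntsr2 over 18 sums of a library and a cell class, from 6 classes with at least 20 cells. The closest were Tprkb (0.96), Sox9 (0.95), a transcription factor gene of astrocytes, Glud1 (0.94), the gene of glutamate dehydrogenase, Aqp4 (0.93), Ivd and Bmpr1a (0.92), and Arhgap5 and Snrnp70 (0.90). For Ntsr1 they were BC007180, Pcsk1, Traip, Paqr9, Gpr26, Cgref1, Hcrtr1 and Diras2, from 0.97 to 1.00. The sums share libraries, depth and class differences, and most Ntsr1 sums outside neurons were 0, so the ranks do not separate these genes from others with the same class.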

How the data were processed

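The authors deposited 1 table of raw UMI counts per library, whole numbers for each gene and cell barcode. Per the submitters' processing notes, bcl2fastq 2.18.0.12, STAR 2.4.2a and Picard 2.2.4 were used with mm10/GRCm38; the annotation, the strand and the rule for choosing barcodes are not given in the sources used here. Positions are from GENCODE on the same build. Of the columns, 0 belonged to other samples. Drd1 and Plpp3 were found under older symbols, and Bdkrb2 was not listed.

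Barcodes were kept with at least 400 genes, at most 10% mitochondrial UMIs and no Scrublet call (scanpy 1.11.5, expected rate 0.05), which removed 58 of 4239 cells (1.37%). No kept barcode occurred in more than 1 library. A cell was assigned to a class with at least 3 UMIs from at least 2 genes of its list and more than 2 times the UMIs of any other of 8 lists. A neuron was GABAergic with at least 2 UMIs of Gad1, Gad2 and Slc32a1, and more of them than of Slc17a6 and Slc17a7, or glutamatergic the other way. Sums of counts per library and class went into edgeR 4.0.16 (R 4.3.3): its quasi-likelihood test after TMM scaling and its default filter on low counts, with p-values adjusted by Benjamini-Hochberg over all genes tested. Library was a block, because both sums of a library come from the same pool of mice. The SE is the log2 fold change over the root of F. DESeq2 1.42.0 was an alternative. Gates were tested with at least 10 cells on both sides in every library. Intervals and limits at 0 (3 counts of the total) cover counting error only. Fixed-depth shares are the mean chance that a draw of that many UMIs includes the gene.

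The members, lists, gates and tests were chosen with earlier results of these data known. Named are the members, the listed pathway, peptide and receptor genes that passed, with others given as values, the gate genes, the 8 largest rises and falls between Nts-positive and Nts-negative cells among genes past the threshold with 1 direction in the 4 libraries, and the 8 genes most like each receptor. A gene that the rule names is not reported here. The Slc1a3 level was added to check the gate, and Npy and Sst were compared across both analyses after their values were seen. The scripts were tested on simulated counts with 200 genes changed 2-fold. For Nts-positive against Nts-negative cells, the Tshz1 gate, and astrocytes against neurons, edgeR recovered 69%, 9.5% and 26% of these genes. Of its calls, 3.50%, 17.4% and 3.70% were wrong. DESeq2 recovered 46%, 6.5% and 17%, and 1.08%, 0% and 0% of its calls were wrong. Small changes could thus be missed, above all in a small gate. In the simulation both sides of a library shared the same expected profile apart from the changed genes, and all genes had the same dispersion. It held no differences between sides that vary by library, as several gates showed. The simulated rates of recovered and wrong calls therefore need not hold for the real counts.

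Alternatives were no low-count filter, no block, DESeq2, single libraries left out, other limits on genes, mitochondrial UMIs and gates, Scrublet calls kept, negative cells matched on depth and other thinning depths.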

Additional observations from a re-analysis of the deposited data

Results flagged for a closer look

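Ntsr2 was also found in barcodes that the analysis left out. Barcodes under 400 genes held 304 Ntsr2 UMIs in 5652 barcodes, a level of 268 ± 151 CPM against 52.2 ± 11.9 CPM in the kept cells (SD, n = 4). By the same marker gate, 434 of them with at most 10% mitochondrial UMIs were astrocytes, more than the 411 kept, with a median of 378 UMIs. These held 251 Ntsr2 UMIs and a level of 1536 ± 244 CPM, against 1501 ± 137 CPM in the kept astrocytes. The 958 such barcodes gated as neurons held 2 Ntsr2 UMIs, and their Nts level was 395 ± 202 CPM.

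A library stood apart from the other 3 in 11 of 80 sets of 4 values searched. The rule flags about 1 in 20 sets of independent, normally distributed values. That rate does not apply here, since sets share cells and a lone value above 0 is always flagged. In 7 of the 11 sets the value came from 1 or 2 UMIs, with 0 in the other libraries. They were Nts in oligodendrocyte precursors (23.7 CPM, library 4), Ntsr1 in library 3 in non-neuronal cells (3.46 CPM; thinned share 0.209%), those other than astrocytes (4.22 CPM), oligodendrocytes (2.48 CPM) and precursors (17.3 CPM), and Ntsr2 in neurons without a transmitter call (24.2 CPM, library 2). The Ntsr1 sets of library 3 all draw on the same 2 UMIs. Nts in cells with Tac1 was at 392 CPM in library 2, against 137 to 180 CPM in the others. Ntsr1 was at 7.89 CPM in cells with Crh in library 2, against 13.4 to 14.0 CPM. It was at 38.0 CPM in cells with Gal in library 1, against 9.66 to 14.3 CPM, and at 28.0 CPM in cells with Tac2 in library 4, against 11.51 to 14.2 CPM.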

How the results depend on the processing

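The class differences of Nts, Ntsr1 and Ntsr2 kept their direction and their side of the threshold under every alternative that gave a value. Ntsr1 was not tested at 5% mitochondrial UMIs, nor were astrocyte gates there or at 800 genes. The number of gates in which Nts passed was 12, but 3 with no replicate block and 6 in DESeq2, and 11 to 12 without single libraries. It was 8 of 17 at 5% mitochondrial UMIs and 15 with no filter on low counts; the block is the library, from which both sums come. The number of genes between Nts-positive and Nts-negative cells was 198, but 20 with no replicate block, 46 in DESeq2, 60 with negative cells matched on depth, and 113 to 154 without single libraries, lowest without library 1. The share of GABAergic neurons with a Nts UMI was 8.57% at 500 and 15.0% at 2000 UMIs in place of 11.7% at 1000, and that of astrocytes with a Ntsr2 UMI 70.9% at 1000. The cause of the differences between tests was not tested. Leaving out the cell of 177 Nts UMIs, chosen after seeing the data, gave 13 gates.

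Turned directions were few among genes that had passed. With at least 800 genes per cell, Adcyap1r1 (0.34), Cpe (0.36) and Ece1 (0.13) turned between neurons and non-neuronal cells, and Sort1 (-0.77) between astrocytes and neurons. Between Nts-positive and Nts-negative cells, Crh turned with depth matching (-0.050) and Gal without library 2 (0.24; -3.72 to 0.24 without single libraries). The others had not passed as reported. For Nts these were Calb2 with no filter (-0.014), without library 2 or 3 (-0.17, -0.081; -0.17 to 0.20 without single libraries), at 5% mitochondrial UMIs (-0.58) and at 1 marker UMI (-0.32), the last 2 passing, while depth matching gave 0.96, which passed too; Npy without library 3 or 4, at 1 marker UMI and with depth matching (0.010, 0.064, 0.035, 0.26; -0.63 to 0.064 without single libraries); Nr2f2 at 1 marker UMI (0.092); Ppp1r1b in DESeq2 (-0.10) and at 5% mitochondrial UMIs (-0.092); Sst in DESeq2 (-0.56) and without library 2 or 4 (-0.30, -0.11; -0.30 to 0.93 without single libraries); and Tac2 without library 4 (-0.061; -0.061 to 0.76 without single libraries). For Ntsr2 with no filter they were Agt (-0.10), Aqp4 (-0.11) and Mfge8 (0.45). Of the other values of named genes and gates under an alternative, 1773 kept their call, 146 lost it and 17 gained one.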

Other observations

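The gates with high Nts overlapped in part. Of the 84 GABAergic neurons with Slc17a8, 18 also had at least 2 Penk UMIs, 12 had Cartpt and 7 had Foxp2, and none had Pdyn. The 12 cells with both Slc17a8 and Cartpt held 229 Nts UMIs (a pooled 3621 CPM), and the 95 with both Penk and Cartpt held 473 (896 CPM). The cell of 177 Nts UMIs is 1 of those 95, and without it the other 94 held 296 UMIs (570 CPM), where the Penk gate had 523 CPM and the Cartpt gate 448 CPM without it. These are single counts over the 4 libraries together, with no test.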
